A study of Drosophila melanogaster with 3 samples.

Results

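The 300 regions described here were the strongest binding peaks of dmrt11E in the fly embryo, and they were 300 of 6706 peaks in the authors' reproducible set. They were chosen by the pooled signal value that the authors gave each peak, in descending order, so the signal itself is a description and carries no test. Chromatin immunoprecipitation with sequencing (ChIP-seq) was done on whole Drosophila melanogaster embryos of mixed sex, 2 to 10 h old. The flies were a transgenic line that stably expressed dmrt11E with green fluorescent protein fused to its C terminus, from an insertion, and an antibody against the fluorescent protein pulled down sonicated chromatin of 200 to 800 bp. The 3 biological replicates form 1 group, and no precipitation from flies without the tag was analysed here. The labels do not say whether the insertion added a gene copy or whether the endogenous gene was still present, and they name no separate collections, so the spread between replicates measures these 3 samples. Since whole embryos were used, a strong peak in few cells and a weaker peak in many cells cannot be told apart. The lists give no read depth.

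DM-domain proteins bind DNA through a zinc-binding domain first known from doublesex and from worm mab-3, and many of them act in sex determination and in the development of sex-specific tissues. They are known to contact the minor groove and to recognise a short element with the core letters ACAATGT. The irreproducible discovery rate, or IDR, keeps peaks whose order by strength agrees between replicates, so the authors' set favours regions that rank alike between replicates. Not every peak in the set ranked alike in every replicate. The one at CG4049 and CG3253, just outside the members, ranked 10228, 261 and 290 in replicates 1, 2 and 3. A peak's summit is the base with the strongest enrichment, and TSS stands for an annotated transcription start site.

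Most summits of the 300 strongest peaks lay in short stretches rich in A and T, and the following windows of 101 bp centred on summits show the range over members. The sequences are from the RefSeq copy of the dm6 assembly, plus strand, 5′ to 3′, and capitals mark unbroken runs of 10 or more A or T letters. CG14100, Chro and Ssl1 are at the 2nd and the 6th strongest peak, FucTB and scat at the member with the lowest GC content, and aop at the member with the highest. lncRNA:CR31840 is at the member whose rank differed most between replicates, and dmrt11E is the tagged gene itself. The windows are chr3L:19590572-19590672 at CG14100, chr3L:22878847-22878947 at Chro and Ssl1, chr2L:9431191-9431291 at FucTB and scat, chrX:13368295-13368395 at dmrt11E, chr2L:14024033-14024133 at lncRNA:CR31840 and chr2L:2163599-2163699 at aop.
CG14100: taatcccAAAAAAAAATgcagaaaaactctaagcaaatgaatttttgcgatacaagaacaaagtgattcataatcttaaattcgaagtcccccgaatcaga
Chro, Ssl1: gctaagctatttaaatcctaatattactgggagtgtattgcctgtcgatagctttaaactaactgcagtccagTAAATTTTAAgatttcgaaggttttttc
FucTB, scat: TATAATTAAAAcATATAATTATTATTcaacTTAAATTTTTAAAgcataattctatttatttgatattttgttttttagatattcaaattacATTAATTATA
dmrt11E: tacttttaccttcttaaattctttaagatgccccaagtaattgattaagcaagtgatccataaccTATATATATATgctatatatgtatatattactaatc
lncRNA:CR31840: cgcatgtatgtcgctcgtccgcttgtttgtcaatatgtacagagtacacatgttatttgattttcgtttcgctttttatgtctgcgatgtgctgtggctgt
aop: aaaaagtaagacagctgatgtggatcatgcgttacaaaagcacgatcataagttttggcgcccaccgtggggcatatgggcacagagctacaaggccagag

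A run of 10 or more A or T letters was present in 73.7% of the member windows (221 of 300, exact 95% interval 68.3 to 78.6%). The same length of run was found in 60.8% of the windows at the other 6406 IDR peaks and in 37.8% at the 22192 weaker peaks of the pooled list, which overlap none of the IDR peaks. Windows 500 bp to either side of the member summits held one in 25.5% of cases, and windows centred 100 bp upstream of all protein-coding TSSs in 41.5%. The median of the longest run was 12 letters in members and 7 in their flanks. All intervals for shares of peaks are exact binomial intervals and cover counting error only. All 300 summit windows occurred once in the 7 chromosome arms, so none of them had a second identical copy there. Copies that differ in some letters, or that lie outside these arms, were not searched for.

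The 4 strongest members with the DM core are printed for the place of the core, which capitals mark on whichever strand it occurs. Their windows are chr3R:15229487-15229587 at Art3 and mRpS10, chr3R:27636128-27636228 at CG5611 and Mtl, chr3R:26017932-26018032 at E(spl)m2-BFM and chr3L:18890741-18890841 at CG3961, all in dm6 and on the plus strand.
Art3, mRpS10: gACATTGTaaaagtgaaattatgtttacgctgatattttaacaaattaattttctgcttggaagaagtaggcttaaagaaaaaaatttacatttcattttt
CG5611, Mtl: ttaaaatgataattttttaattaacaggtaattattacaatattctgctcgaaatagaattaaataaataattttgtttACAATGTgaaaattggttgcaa
E(spl)m2-BFM: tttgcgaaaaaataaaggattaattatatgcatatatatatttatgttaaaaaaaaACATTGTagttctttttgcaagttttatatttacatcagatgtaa
CG3961: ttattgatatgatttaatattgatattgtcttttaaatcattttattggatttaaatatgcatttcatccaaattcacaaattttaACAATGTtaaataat

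Most members did not hold the DM core near the summit. It was found within 50 bp of the summit, on either strand, in 9 of 300 members, or 3.0% (1.38 to 5.62%), beside 1.90% of the other IDR peaks and 1.71% of the weaker pooled peaks. Windows 500 bp from member summits held it in 1.17% of cases and windows upstream of protein-coding TSSs in 1.43%. The same 7 letters in 419 other orders were found in a median of 1.67% of members, with quartiles of 1.0% and 2.33%. Among later blocks of 300 IDR peaks in order of pooled signal, the share with the DM core ran from 0.667% to 3.67%. The members' 3.0% lay within that range, so it does not set them apart from every later block. In the replicates' own lists the share was 3.22% ± 0.192 (SD, n = 3) in the 300 strongest peaks and 1.95% ± 0.0738 (SD, n = 3) in the peaks that followed in the same list, down to rank 6706. The difference was 1.28 percentage points ± 0.153 (SD, n = 3), positive in 3 of 3 replicates. The exact paired permutation test by sign flips, two-sided, gave p = 0.25, the smallest that 3 replicates allow, so this test could not pass 0.05. Of the 300 strongest peaks of replicates 1, 2 and 3, 85.7%, 93.0% and 88.7% overlapped a member reciprocally by at least 50%. The replicates thus measured largely the same regions, here and in the comparisons below. Their agreement and SD do not come from separate sets of regions.

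The 9 members with the core were spread over promoters and other sites, and their GC content ran from 16.8% to 29.7%. The strongest, at the shared promoter of the arginine methyltransferase gene Art3 and the mitochondrial ribosomal protein gene mRpS10, ranked 5, 5 and 3 in replicates 1, 2 and 3. The next, at CG5611 and Mtl, ranked 10, 6 and 10. The others lay at E(spl)m2-BFM, CG3961, CG10357, CG4218, the promoter of the organic anion transporter gene Oatp30B, an intron of CG1677 and lncRNA:CR44357, and an intron of CG9837. Of the 9 members, 4 were at promoters and 7 were among the 300 strongest peaks of every replicate. The member at CG3961 moved more between replicates, with ranks of 318, 131 and 73.

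On average, the 300 summits sat at the bottom of a narrow dip in GC content. The median GC content within 50 bp of a member summit was 25.7% (quartiles 22.5% and 30.7%, range 10.9% to 49.5%), beside 29.7% at the other IDR peaks and 39.6% at weaker pooled peaks. Windows 500 bp away from member summits had a median of 44.6%, and 86.7% of members (260 of 300) had less GC at the summit than in both flanks. Among the other IDR peaks that share was 70.5%. In replicates 1, 2 and 3 the 300 strongest peaks had medians of 27.7%, 26.7% and 25.7%, and the later peaks down to rank 6706 had 33.7%, 30.7% and 29.7%. The difference was -4.62 percentage points ± 1.14 (SD, n = 3), with the strongest peaks lower in 3 of 3 replicates, and the exact paired permutation test (two-sided) gave its smallest possible p of 0.25.

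**Figure D1:**
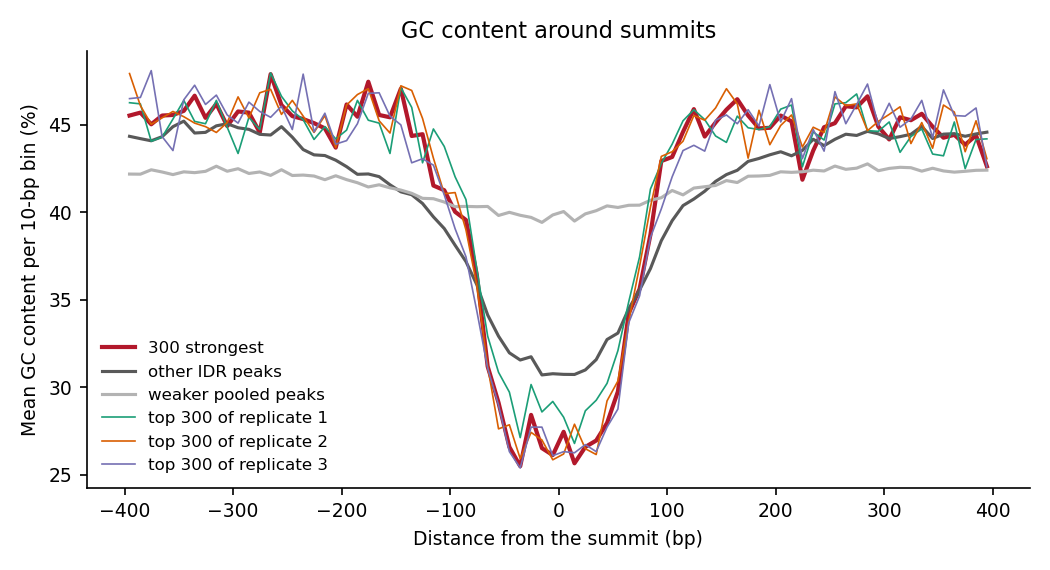
Mean GC content (%, per 10-bp bin) against distance from the summit in bp, for the 300 strongest IDR peaks, the other IDR peaks, the weaker pooled peaks and the 300 strongest peaks of each replicate, 1 line each. The line of the 300 strongest falls from 45.1% beyond 200 bp to 25.5% in its lowest bin, the other IDR peaks reach 30.7%, and the weaker pooled peaks stay near 39.4% at their lowest.

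The dip was deeper than the usual composition of fly promoters at the same place. Windows 138 bp upstream of all protein-coding TSSs, the median position of promoter members, had a median GC content of 36.6%, and 16.8% of them were at or under the members' median. Promoter members had a median of 25.7% and the other members 26.7%. The stretch around the summit in which GC content averaged over 51 bp stayed under 35% had a median length of 113 bp in members and 79 bp in the other IDR peaks. It was missing, with no such stretch at the summit, in 49 members (16.3%) and in 32.4% of the other IDR peaks. The median stretch is shorter than the shortest sonicated fragments of 200 bp.

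Members lowest in GC content were mostly at promoters, and those highest were mostly not. Of 40 members under 20% GC, 27 were at promoters, and of 14 members at 40% or more, 3 were at promoters. These limits were chosen after the values were seen. At the low end, the shared promoter of the fucosyltransferase gene FucTB and of scat had 10.9% GC, and the promoter of CG34007 had 11.9%. At the high end, an intron of aop, which encodes an ETS-domain repressor of EGF receptor signalling, had 49.5%, and introns of mub and wde had 48.5% each.

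Of the 21 short motifs searched on both strands within 50 bp of the summit, TATAAA and the Sox core ACAAT were the most frequent in members. TATAAA was found in 32.3% of members, in 26.7% of the other IDR peaks, in 8.83% of member flanks and in 16.3% of windows upstream of protein-coding TSSs. The homeodomain core TAATTA was found in 17.0%, 11.6%, 6.67% and 8.22% of the same sets. Both consist of A and T alone, and the other motifs hold G or C letters, so no motif count is separate from the GC content. The GAGA factor motif GAGAG was found in 4.33% of members, 7.07% of the other IDR peaks, 13.0% of member flanks and 15.9% of windows upstream of TSSs. The Sox core ACAAT, which the DM core contains, was found in 30.0% of members and 32.7% of the other IDR peaks. The promoter element TATCGATA was found in 0 of 300 members, which allows a share of up to 1.22%, and in 1.25% of the other IDR peaks. The E-box CACGTG was likewise found in 0 members and in 0.578% of the other IDR peaks. The same held for the ETS motif CCGGAAG, with 0 members and 0.312%, and for the repeat ACACACAC, with 0 members and 1.08%. TATCGATA contains the letters CGATA, which were found in 11% of members and 14.1% of the other IDR peaks.

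The 7-letter words most frequent at member summits relative to their flanks were rich in A and T. Words in at least 10% of members were ranked by this ratio, so the ranking is a description. TAATATA led, in 15.3% of member windows and 2.17% of flanks. ATATTAA followed, in 21.3% and 3.5%, and AAATTAA came next, in 24.7% and 4.17%. The next word, CATTTTA, held 1 letter other than A and T, and was found in 11.7% and 2.0%. In the other IDR peaks, which did not choose these words, TAATATA was found in 9.57% of summit windows and 2.36% of flanks.

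More members than not were at promoters, counted as summits within 500 bp of a TSS of any annotated gene. This was the case for 158 of 300 members, or 52.7% (46.8 to 58.4%), beside 39.9% (38.7 to 41.1%) of the other IDR peaks and 26.3% of the weaker pooled peaks. In the 300 strongest peaks of replicates 1, 2 and 3 the share was 50%, 54.7% and 54.7%, and in the later peaks down to rank 6706 it was 41.3%, 40.8% and 39.4%. The difference was 12.6 percentage points ± 3.47 (SD, n = 3), positive in 3 of 3 replicates, with an exact paired permutation p of 0.25 (two-sided), the smallest possible. The promoter share was 61.3% in the 150 strongest peaks and 50.5% in the 600 strongest.

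The excess lay mostly in summits a little upstream of the start site and not in those within 100 bp of it. Summits within 100 bp of a TSS made up 10.3% of members and 14.3% of the other IDR peaks. Summits 101 to 500 bp away on either side made up 42.3% and 25.6%. Those 101 to 200 bp upstream made up 21.7% of members and 12.8% of the other IDR peaks, and those 1 to 100 bp upstream 6.0% and 10.7%. At 0 to 99 bp downstream the shares were 4.33% and 3.54%. The median promoter member was 137.5 bp upstream of its nearest TSS (quartiles 212 and 95.5 bp upstream), and the median of the other promoter peaks was 115 bp upstream. Summits upstream of the nearest TSS made up 81.6% of promoter members (129 of 158) and 83.2% of the other promoter peaks. The median distance of all members to a TSS was 414.5 bp (quartiles 154 and 1877 bp), beside 1055 bp for the other IDR peaks. In replicates 1, 2 and 3 the median distance was 498.5, 376.5 and 361 bp in the 300 strongest peaks and 924.5, 981 and 1063.5 bp in the later peaks down to rank 6706 (exact paired permutation p = 0.25, two-sided, the smallest possible, n = 3).

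**Figure D2:**
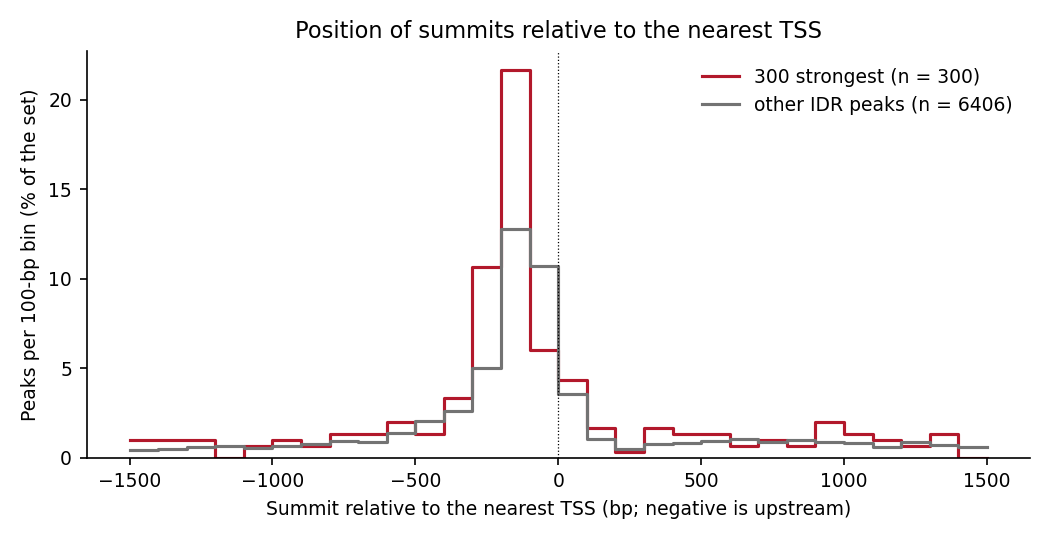
Share of peaks (% of each set, per 100-bp bin) against the position of the summit relative to the nearest TSS in bp, negative values being upstream, for the 300 strongest IDR peaks and the other 6406. The members peak between 200 and 100 bp upstream, and the bin next to the TSS on its upstream side is lower in members than in the other peaks.

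Many member promoters faced both ways. TSSs on both strands lay within 500 bp of the summit in 37.3% of promoter members (59 of 158, 29.8 to 45.4%) and in 41.2% of the other promoter peaks. The 300 strongest peaks of the replicates gave 38.9% ± 2.26 (SD, n = 3) and the rest 39.4% ± 2.48 (SD, n = 3), a difference of -0.567 percentage points ± 1.21 (SD, n = 3) with an exact paired permutation p of 0.75 (two-sided). With a window of 200 bp the order turned, with 40.6% of promoter members and 27.5% of the other promoter peaks.

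Away from promoters, members lay mainly in introns and between genes. Introns held 29.0% of members and 36.4% of the other IDR peaks, and intergenic DNA held 15.3% and 21.4%. Exons of non-coding transcripts held 8 members, the 3' UTR class held 1, and no member summit lay in a coding exon or a 5' UTR farther than 500 bp from a TSS, which allows up to 1.22% for each. The members were on arms 2L (70), 2R (53), 3L (76), 3R (59) and X (42), and none was on chromosome 4, which held 0.734% of the other IDR peaks. The 10 members farthest from any TSS were in or near the bone morphogenetic protein regulator gene cv-2, the Wnt receptor gene fz, the Krüppel-like factor gene dar1, osp, CG42238, CG5103, lncRNA:CR46353 and, with 3 peaks, sbb. The farthest was in an intron of CG42238, 25246 bp from a TSS, and ranked 207, 256 and 316 in the replicates. The member in fz was 22182 bp away and ranked 48, 51 and 110.

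Ranks in the replicates are a description too, because the replicates make up the pooled signal. A member was matched to the strongest replicate peak that overlapped it reciprocally by at least 50%. Replicates 2 and 3 had a match for all 300 members and replicate 1 for 287. The match was among the 300 strongest peaks of replicate 1 for 258 members, of replicate 2 for 280 and of replicate 3 for 266. Members matched in the 300 strongest of every replicate numbered 224, or 74.7% (69.3 to 79.5%). A further 57 were in the strongest 300 of 2 replicates, 18 of 1 and 1 of none, the last at lncRNA:CR42794.

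The share of members within the strongest 300 of every replicate fell towards the end of the list. A member ranked near 300 leaves a replicate's strongest 300 with a small shift in rank, so this fall does not by itself measure agreement. Of the members ranked 1 to 100, 99 were among the 300 strongest peaks of every replicate, and of those ranked 251 to 300, 10 of 50 were. Spearman's rho between pooled rank and replicate rank was 0.80 in replicate 1 (n = 287 members), 0.92 in replicate 2 and 0.88 in replicate 3 (n = 300 each). Summits shifted little, by a median of 7, 6 and 5 bp in replicates 1, 2 and 3. The ratio of a member's highest to its lowest replicate rank had a median of 1.67, and it was under 2 for 189 of the 287 members with all 3 ranks.

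**Figure D3:**
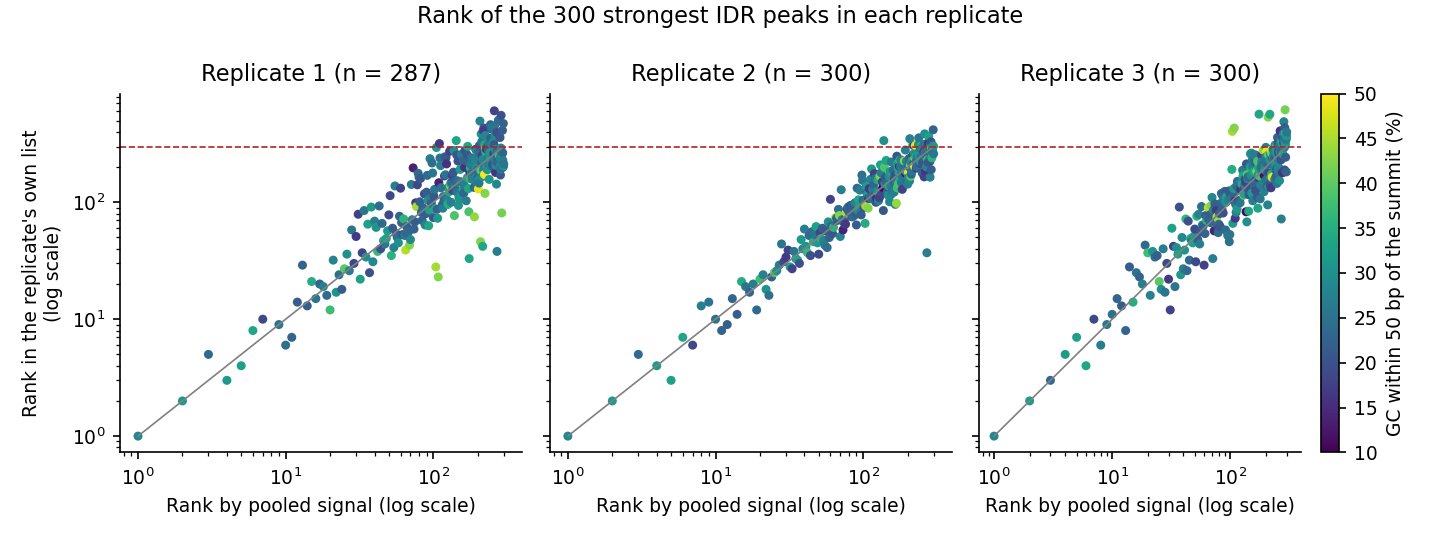
Rank in each replicate's own list (log scale) against rank by pooled signal (log scale) for the members, 1 panel a replicate and 1 point a member, coloured by GC content within 50 bp of the summit (%). The grey line marks equal ranks and the dashed line rank 300, and the members farthest below the line in replicate 1 are mostly high in GC content and lie above rank 300 in replicate 3.

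The list ended where neighbouring signals were close. The last 5 members had pooled signals of 1692.8, 1687.4, 1685.1, 1682.2 and 1679.8, in the intron of the growth factor gene Pvf3, the intron of the BTB-domain gene rib, the promoter of bin3, near lncRNA:CR44737 and in an intron of CG1677. The 5 peaks just outside had 1678.3, 1678.1, 1677.3, 1673.9 and 1661.5, at CG4049 and CG3253, pot, CG32022 and CG6511, hiw and magu. The median signal of the 300 members was 2260 and the highest was 8311.9, while the median of the other IDR peaks was 309. The signal is the authors' score and was compared within 1 list only.

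The 13 members with no match in replicate 1 were wide, at 479 to 823 bp. They included the peak in an intron of ush, which encodes a FOG-family partner of GATA factors. That peak ranked 8 by pooled signal and 13 and 6 in replicates 2 and 3. With any overlap of 1 bp accepted, all 13 had a partner in replicate 1, with ranks from 11 to 739, and 6 of the 13 were then among its strongest 300. Peaks were narrower in that replicate. The matched peaks had a median width of 314 bp in replicate 1 and 403.5 bp in each of replicates 2 and 3.

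Width goes with the signal that chose the members, so it is given without a test. The median member was 430 bp wide (quartiles 399 and 480 bp, range 297 to 847 bp), beside 344 bp in the other IDR peaks. The most common width in the pooled list was 404 bp. A total of 67.7% of members were wider than that, beside 4.65% of the other IDR peaks, and 5 members had exactly that width, beside 37.8% of the others. The summit lay between 40% and 60% of the peak's width in 91.3% of members, 79.7% of the other IDR peaks and 99.8% of the weaker pooled peaks. Of the weaker pooled peaks, 99.7% were exactly 404 bp wide, so these shares do not compare the shape of peaks alone. The 100 widest members, at 461 bp or more, were at promoters in 61.0% of cases, and the 100 narrowest in 47.0%. Their median pooled ranks were 106.5 and 199.5, so width was not separated from signal here.

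**Figure D4:**
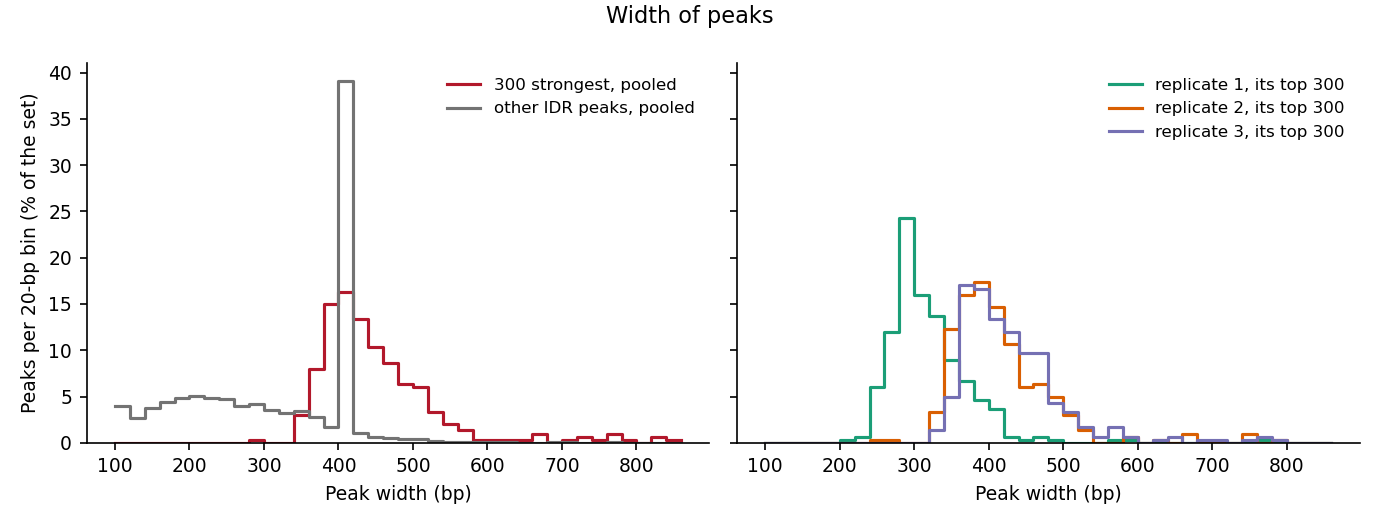
Share of peaks (% of each set, per 20-bp bin) against peak width in bp, on the left for the 300 strongest IDR peaks and the other IDR peaks of the pooled list, and on the right for the 300 strongest peaks of each replicate. The other IDR peaks pile up in the bin that holds 404 bp, the members extend to 847 bp, and replicate 1 is shifted to smaller widths than replicates 2 and 3.

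The widest members were at lncRNA:CR45411 (847 bp), Drat (825 bp), lncRNA:CR45737 (823 bp), CG1888 (782 bp) and lncRNA:CR42794 (776 bp). Of these, CG1888 was also among the strongest, with ranks of 4, 3 and 7, and its summit lay at 30.4% of the peak's width. The narrowest were at CG7560 (297 bp), Eip75B (344 bp), CG3726 (344 bp), the shared promoter of fws and Lamtor3 (352 bp) and Pvf3 (353 bp). Only 1 pair of members overlapped. It was 1 interval at CG9663 listed with summits 200 bp apart and pooled ranks of 42 and 270, and both were matched to the same peak in each replicate, ranked 38, 37 and 72. The members were thus 299 distinct regions.

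The members with the most unequal ranks differed in which replicate was high. Of the 10 with the largest rank ratios, 6 were strongest in replicate 1 and 4 in replicate 3. lncRNA:CR31840 ranked 23, 89 and 432 in replicates 1, 2 and 3, with signals of 1053.9, 942.5 and 618.6 in lists that are not on 1 scale. The member at mir-9378 ranked 33, 180 and 567. A member in an intron of sbb, which encodes a transcriptional co-repressor, ranked 28, 93 and 404. All 3 ranked far ahead in replicate 1 of their place in replicate 3, as did members near the fork head gene croc (42, 234 and 566), in the intron of the junction gene cno (46, 206 and 535) and near CG43131 (81, 293 and 618). Their GC content ran from 33.7% at croc and mir-9378 to 44.6% at sbb, above the members' median of 25.7%.

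The other 4 were strongest in replicate 3. lncRNA:CR45595 ranked 79, 39 and 12, with 17.8% GC. An intronic member of CG1677 whose nearest TSS was that of brk, a repressor of Dpp target genes, ranked 495, 350 and 95. The promoter of the endosomal J-domain gene Rme-8 ranked 277, 337 and 68, and that of E(spl)m3-HLH ranked 217, 171 and 46. Their GC content was 17.8% to 29.7%.

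GC content went with the order of replicate 1 against the others, which is given as a description, since members share libraries and base composition. Spearman's rho between GC content and the log2 ratio of rank in replicate 1 to rank in replicate 3 was -0.31 over 287 members and -0.37 over 4473 other IDR peaks with 3 ranks. The same rho for replicate 1 over replicate 2 was -0.44 and -0.32. For replicate 2 over replicate 3 it was -0.08 in members and -0.22 in the other IDR peaks. In the 96 members lowest in GC, the median ranks in replicates 1, 2 and 3 were 164, 116.5 and 125.5. In the 95 highest in GC they were 128, 168 and 172. Members that ranked ahead in replicate 1 of their place in replicate 3 made up 38.5% of the 96 lowest and 64.2% of the 95 highest. The part of GC content in these ranks was not tested.

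**Figure D5:**
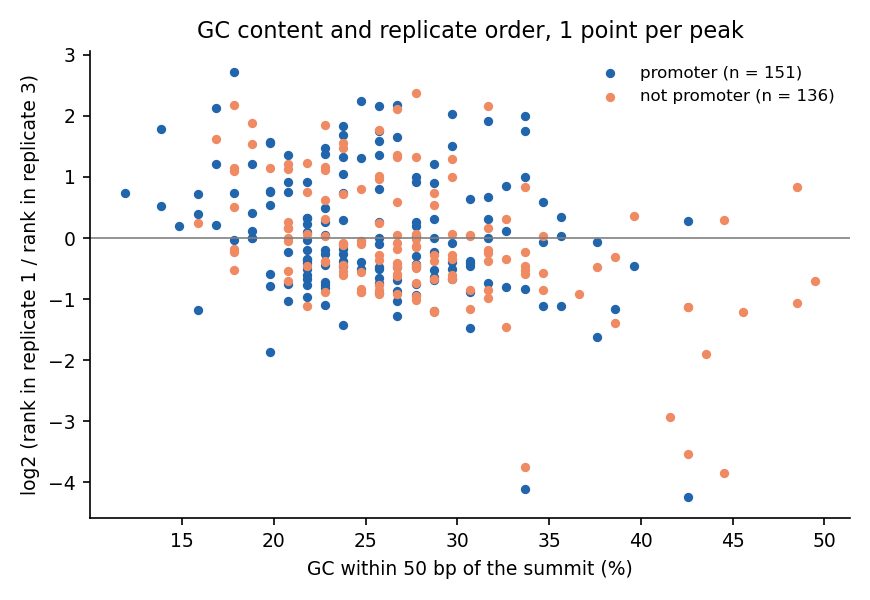
The log2 ratio of a member's rank in replicate 1 to its rank in replicate 3 against GC content within 50 bp of its summit (%), 1 point a member with 3 ranks, promoter members in blue and others in orange; values below 0 are members stronger in replicate 1. Most points lie close to 0, and the 6 lowest points lie at 33.7% GC or above.

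The strongest 50 members were mostly at promoters, with 34 there, 9 in gene bodies and 7 between genes. The first, at the promoter of px, a gene known for wing vein patterning, spanned chr2R:22514063-22514532, had its summit 205 bp upstream of the TSS and ranked 1 in every replicate. CG14100 ranked 2 in every replicate, with signals of 1745.4, 2616.6 and 3289.2. These 2 kept their places in all 3 lists.

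Several of the strongest 50 members were at genes whose products act in chromatin, which is a description of single genes and not of a list. ph-p, which encodes a subunit of Polycomb repressive complex 1, had 2 members 608 bp apart within 500 bp of its TSSs, with ranks of 3, 4 and 5 and of 30, 31 and 30. The member shared by Chro, whose chromodomain protein marks open chromatin between polytene bands, and by Ssl1, a subunit gene of the general factor TFIIH, ranked 8, 7 and 4. Trl, the gene of GAGA factor, had an intronic member with ranks of 36, 26 and 18. A member within both HMG-box genes HmgZ and HmgD ranked 69, 59 and 27.

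Further members among the strongest 50 were at genes of varied roles. ush had the intronic member described above. Btk, the gene of a Tec-family tyrosine kinase, had a promoter member with ranks of 25, 30 and 91, and gish, the gene of a casein kinase 1, one with ranks of 24, 16 and 34. Introns of Lk6, a kinase gene of translation control, and of the Tousled-like kinase gene Tlk held members ranked 17, 18 and 38 and 22, 28 and 60. The nearest start site to a member ranked 19, 20 and 20 was that of the mitotic cyclin gene CycB, 3339 bp away. Mkk4 and SLIRP2 shared a member that ranked 49, 62 and 45, and the cell adhesion gene Ama shared one with lncRNA:CR45593 that ranked 93, 52 and 26.

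Shared promoters made up much of the rest. Tcs5, which encodes a kinase of the KEOPS tRNA modification complex, shared one with the ESCRT-III gene CHMP2B, with ranks of 9, 14 and 9. Others were Fbw5 with CG9147, eIF4EHP with CG18428, mRpS23 with CenG1A, Pal1 with Pdrg1, and the mitochondrial protease gene Lon with the membrane-anchor synthesis gene PIG-F. Fkbp14, RluA-1, PNPase, CG18549, CG1142, CG13921 and CG31886 had promoter members alone, and so did the non-coding lncRNA:CR44339 and lncRNA:CR31044. Ranks of these members in the 3 replicates lay between 7 for lncRNA:CR44339 and 69 for CG31886. The other members among the first 50 were at the promoters of CG11309 with CG7632 and of CG7183 with CG7988, in CG11050, CG32772 and lncRNA:Vinr, and between genes nearest to CG31668, CG13321, CG13323, CG43131, CG43245 and CG5103.

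At their promoters the members took in 223 genes of any kind, of which 195 were protein-coding. These 195 were 2.7% of the 7211 protein-coding genes with a summit of the pooled list within 500 bp of a TSS, and this is the share against which the lists below can be read. A total of 92 promoter members had 1 gene and 66 had more than 1, so neighbours that share a member were each counted. Non-coding RNA genes numbered 25, including mir-9378, and there were 2 tRNA genes and 1 pseudogene. Of the 19 gene lists, 11 had at least 1 gene with a member at its promoter. Lists are described by counts, with no set test.

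Developmental regulators of the Notch pathway held 4 of the 27 genes on their list that had a pooled promoter summit. Of those genes, 3 were bHLH repressor genes of the E(spl) complex, E(spl)m7-HLH, E(spl)mdelta-HLH and E(spl)m3-HLH, and the other was numb, whose product inhibits Notch in asymmetric divisions. numb ranked 65, 32 and 36 in replicates 1, 2 and 3, E(spl)m7-HLH ranked 85, 38 and 19, and E(spl)mdelta-HLH ranked 91, 48 and 24. The receptor gene N itself had a member in its body, 10600 bp from a TSS, with ranks of 237, 247 and 230. The E(spl) complex on arm 3R held 5 members across 40043 bp, at CG43116, E(spl)mdelta-HLH, E(spl)m2-BFM, E(spl)m3-HLH and E(spl)m7-HLH. Of these 5, all but the one at CG43116 alone had their lowest rank number in replicate 3.

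Polycomb and Trithorax genes had 3 of 30, ph-p, the PRC2 methyltransferase gene E(z) and the SWI/SNF ATPase gene brm. E(z) ranked 199, 158 and 152, and brm ranked 185, 203 and 162. Members lay in the bodies of trx, Trl and osa. Among 27 insulator and promoter architecture genes, Chro and Cp190 had a member at the promoter, and the histone kinase gene JIL-1 and Trl in the body. Cp190 ranked 101, 84 and 80, so its place differed little between replicates.

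Mitochondrial ribosomal protein genes had 5 of 61 with a member, and cytosolic ribosomal protein genes 0 of 84. The 5 were mRpS10, mRpS23, mRpL41, mRpL23 and mRpL24. mRpS23 ranked 31, 40 and 50 in replicates 1, 2 and 3, mRpL41 ranked 62, 73 and 71, and mRpL24 ranked 214, 217 and 320. Of the 84 cytosolic genes, 72 had an IDR peak at the promoter that was not a member, at a lower signal. The same share over all protein-coding genes was not computed, so the 72 have no background here. Proteasome genes (0 of 29), translation factor genes (0 of 33), oxidative phosphorylation genes (0 of 72) and cell cycle genes (0 of 37) had no member at a promoter, though CycE had one in its body. At the share of 2.7% over all protein-coding genes with a pooled promoter summit, lists of these sizes would hold few such genes. Counts of 0 therefore do not set these lists or the cytosolic genes apart.

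Mesoderm and muscle genes had 2 of 28, the FGF receptor adaptor gene stumps and the T-box gene org-1. stumps ranked 141, 88 and 61, and org-1 ranked 126, 140 and 211. The transcription factor gene zfh1 and the myoblast fusion gene kirre had members in their bodies. EGF receptor and Dpp signalling had 1 of 27, the inhibitor gene aos, and Wnt and Hedgehog signalling 0 of 29, with members in the bodies of fz and nkd. Vesicle trafficking had 2 of 47, CHMP2B and Vps33B. The general transcription factor list had 1 of 32, Ssl1. The neuronal list had 1 of 26, the RNA-binding protein gene elav with ranks of 140, 122 and 255. Homeobox genes (0 of 46) and heat shock genes (0 of 15) had none.

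Nuclear receptor genes had 1 of 18 at a promoter, the ecdysone-induced Eip75B, and members lay in the bodies of Hr3 and Hr4. Eip75B held 3 members within 9378 bp, with pooled ranks of 249, 71 and 239. The gene sbb held 3 within 3205 bp, with pooled ranks of 86, 104 and 54, all in an intron far from a TSS. These were the only groups of 3 members with gaps under 10 kb, and 60 members in all (20%) had another member within that distance, in 29 groups. Another IDR summit of any strength lay within 2000 bp of 48.3% of members and of 38.4% of the other IDR peaks.

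The tagged gene had a member at its own promoter. Its summit lay 154 bp downstream of a TSS of dmrt11E, in the window printed above, with 25.7% GC, a pooled rank of 156 and ranks of 148, 137 and 206 in replicates 1, 2 and 3. Its signals in those replicates were 527.3, 785.2 and 893.2. Another 2 IDR peaks at or near the gene were outside the members, with pooled ranks of 481 and 3364. Whether the insertion added copies of this region was not tested.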

How the data were processed

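Peaks of 3 replicates of 1 group were analysed. Per the file headers, the authors called peaks on each replicate and on the 3 pooled, each against 1 control, on dm6. The sources used here name neither an aligner nor a peak caller; these are not given. Each deposited peak has a signal value (the authors' score), a −log10 q deposited by the authors, and a summit offset. The replicate and pooled lists hold 30000 peaks each. All 300 members share 1 tied −log10 q, so it was not used for ranking. The unit of the score is not stated, and lists of equal length do not show depth, so precision is known only from the 3 replicates.

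Members are the 300 rows of the IDR list with the highest pooled score. The members and lists were chosen with earlier results of these data known. Genes and TSSs came from Ensembl release 115 (BDGP6.54) without transposable elements, and sequence from the RefSeq genome of that assembly, in which every peak end lies within its arm. A member belonged to every gene with a TSS within 500 bp of its summit, otherwise to the gene whose body held the summit, otherwise to the nearest TSS. Coordinates count from 1. Matching, motif search and sign flips were tested on simulated data. Attributes that the score did not use were compared within each replicate, its 300 strongest peaks against ranks 301 to 6706, by exact paired permutation. Named were genes at ranks 1 to 50, list genes, extremes of width, distance and rank ratio, groups of 3, DM-core members and dmrt11E; genes at the GC extremes were added after their values were seen. Of the symbols on the 19 lists, 5 were not matched. Python 3.11.15, numpy 2.4.6, pandas 2.3.3, scipy 1.17.1 and matplotlib 3.10.9 were used.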

Additional observations from a re-analysis of the deposited data

How the results depend on the processing

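No paired analysis between groups was possible because there is 1 group. The differences between the 300 strongest and the other IDR peaks kept their direction under the alternatives run for each. For promoter share these were other TSS windows, protein-coding TSSs, 150 or 600 rows, merged overlaps and weaker pooled peaks as comparison. For distance to a TSS they were protein-coding TSSs, 150 or 600 rows and merged overlaps. For the DM core they were other summit windows, 150 or 600 rows, merged overlaps and the flanks, and for GC content other summit windows and merged overlaps. All 4 kept it also with members kept only where the strongest 300 of 2 given replicates held them. The share of promoter members with TSSs on both strands reversed against the other peaks with a 200 bp window, at 40.6% beside 27.5%. The cause was not tested. Members matched in the 300 strongest peaks of every replicate fell to 7.67% with a reciprocal overlap of 80%. At that overlap 10.7%, 98.3% and 96% of members had a match of any rank in replicates 1, 2 and 3. The share rose to 91.7% and 95% with the strongest 450 and 600 peaks of a replicate. Leaving out 1 replicate gave 76.0% to 83.7%, where fewer replicates have to match. Protein-coding genes at member promoters numbered 118 with 150 rows and 383 with 600. Ranking by −log10 q was not run because its values are tied. With 3 replicates the sign-flip test cannot go below 0.25.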
